A study of Rattus norvegicus with 35 samples.

Results

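Interferon regulatory factors and interferon response genes were followed in the adult rat retina after optic nerve lesion. They were 10 genes, Irf1, Irf7, Irf8, Irf9, Mx1, Mx2, Oas1a, Ifit3, Ifitm3 and Gbp2, out of the 14217 genes with 1 platform gene symbol on the array. They were chosen by name. Where a gene had several probe sets, the brightest on average over the 35 arrays stood for it. All 10 had a probe set, and Irf9 and Mx2 had a second probe set each.

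Retinas came from adult female Sprague-Dawley rats whose left optic nerve was transected (IONT, intraorbital nerve transection) or crushed (IONC, intraorbital nerve crush) within the orbit, or from naïve rats with no lesion. Each array measured RNA pooled from 4 retinas. There were 5 naïve arrays, 3 arrays each of IONT 12 h, 48 h and 7 d, 2 arrays each of IONT 24 h, 3 d and 15 d, and 3 arrays of IONC at every one of 5 times, from 12 h through 24 h, 48 h and 3 d to 7 d. Whole retinas were extracted, so that fewer cells of a type and less RNA per cell cannot be told apart, and the pools hide the spread between single animals.

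Interferons are cytokines that cells release when they sense foreign or misplaced nucleic acids and other danger signals. Type I interferons act through a receptor whose kinases activate transcription factors that join IRF9 and bind the interferon-stimulated response element (ISRE). Interferon gamma acts through its own receptor on genes that carry the gamma-activated sequence (GAS). The genes that follow encode further regulators such as IRF1 and IRF7, and effectors that block viral entry, translation or replication. In nervous tissue microglia, astrocytes and neurons can all mount such a response.

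The promoter sequences of RefSeq (rat build GRCr8, 250 bases before to 50 bases after 1 start per gene) held 9 of the 10 genes. Mx2 was the gene without an entry. They were searched on both strands for the ISRE letters GAAANNGAAA and the GAS letters TTCNNNGAA. The ISRE letters were found in 5 of the 9 promoters, those of Irf7, Oas1a, Ifit3, Ifitm3 and Gbp2, and in 3.92% of all 33469 promoters of the same length. The GAS letters were found in 5 of the 9, those of Irf1, Irf8, Irf9, Oas1a and Ifitm3, and in 8.87% of all promoters. Neither was found in the Mx1 window. The stretches below are shown because they separate the regulators Irf1 and Irf9, whose windows held the GAS letters alone, from Irf7 and the effectors Oas1a, Ifit3, Ifitm3 and Gbp2, whose windows held the ISRE letters. This contrast was drawn from the matches themselves. The window of Irf8 also held the GAS letters alone, in 2 matches. These are not printed, nor are the GAS matches of Oas1a and Ifitm3. The match is in capitals, read in the direction of the gene. In Irf7, Ifit3 and Gbp2 the ISRE letters lie on the opposite strand. In Oas1a a pair of overlapping matches is capitalised as a single run. A match describes letters and is not a tested binding site.
Irf1, GAS, chr10:38417778-38417816, plus strand: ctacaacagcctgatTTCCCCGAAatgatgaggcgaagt
Irf9, GAS, chr15:33065722-33065760, plus strand: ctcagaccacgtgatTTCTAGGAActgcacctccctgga
Irf7, ISRE, chr1:205800068-205800107, minus strand: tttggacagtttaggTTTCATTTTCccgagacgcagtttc
Oas1a, ISRE, chr12:41330410-41330455, plus strand: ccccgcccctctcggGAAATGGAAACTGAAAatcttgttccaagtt
Ifit3, ISRE, chr1:241527267-241527306, plus strand: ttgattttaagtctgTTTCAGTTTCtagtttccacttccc
Ifitm3, ISRE, chr1:205541778-205541817, minus strand: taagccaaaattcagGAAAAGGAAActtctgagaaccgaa
Gbp2, ISRE, chr2:234005681-234005720, plus strand: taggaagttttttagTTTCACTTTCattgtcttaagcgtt
All of the printed matches lie before the start that the promoter table uses. The nearest of them is in Gbp2, 31 to 22 bases before it, and the farthest in Irf1, 142 to 134 bases before it. For Irf7, Irf9 and Oas1a the outermost boundary of the RefSeq gene lies further upstream than that start, and by it their matches fall within the gene.

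The values below are log2 signals per probe set. They compare 1 gene between arrays and not genes with each other. Calls required a Benjamini-Hochberg adjusted p under 0.01 in limma, positive log odds of change (B), and a fold change of 1.2 or more. The arrays fell into 2 sets by the 3′ minus 5′ difference of the actin control probe sets, a measure of RNA quality and labelling. It was 1.53 to 1.93 (log2) on 27 arrays and 2.61 to 3.65 on the other 8, which were naïve replicates 4 and 5 and all arrays of IONT 24 h, 3 d and 15 d. These 3 groups were therefore compared with naïve replicates 4 and 5, and the other groups with the mean of all 5 naïve arrays. IONC 12 h replicate 2 stood apart, with a median correlation of 0.871 to the other arrays, against 0.962 to 0.992 for the others. On that array the summed signal of 12 T and NK cell markers was 252.8, against 59.92 to 94.93 on the others. The sum of 3 B cell markers was also raised there, at 25.29 against 12.17 to 13.83. Of the 12 T and NK cell markers, Cd3d, Cd3g, Cd4, Cd8a, Cd8b, Lck, Cd247 and Klrd1 had a mean below a log2 value of 3 at IONC 12 h.

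Of the 10 genes 3, Irf9, Mx2 and Ifitm3, were upregulated in at least 1 injured group, and 0 were downregulated. With naïve replicates 1 to 3 alone as the reference, 1 of them, Irf9, was called higher. Of 110 changes against naïve, 10 genes at 11 time points, 100 were above 0 and 11 were called, all of them higher. Over all genes, 7.35% were called higher in at least 1 of the 11 comparisons and 9.09% were called lower. After IONT, 1 of the 10 was called at 12 h, beside 2.02% of all genes called higher there. The 24 h group had 0 calls (background 0.338%), the 48 h group 3 (background 2.62%), the 3 d group 0 (background 0.605%), the 7 d group 1 (background 1.34%) and the 15 d group 0 (background 1.44%). After IONC the 12 h group had 0 calls (background 2.26%), the 24 h group 1 (background 1.77%), the 48 h group 3 (background 2.37%), the 3 d group 2 (background 1.26%) and the 7 d group 0 (background 1.37%). At 48 h the same 3 genes were called after both lesions. The median change of the 10 genes ranged after IONT from 0.08 at 24 h to 1.23 at 12 h and 7 d, and after IONC from 0.55 at 7 d to 2.11 at 48 h, with the median of all genes between -0.04 and 0.05.

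**Figure D1:**
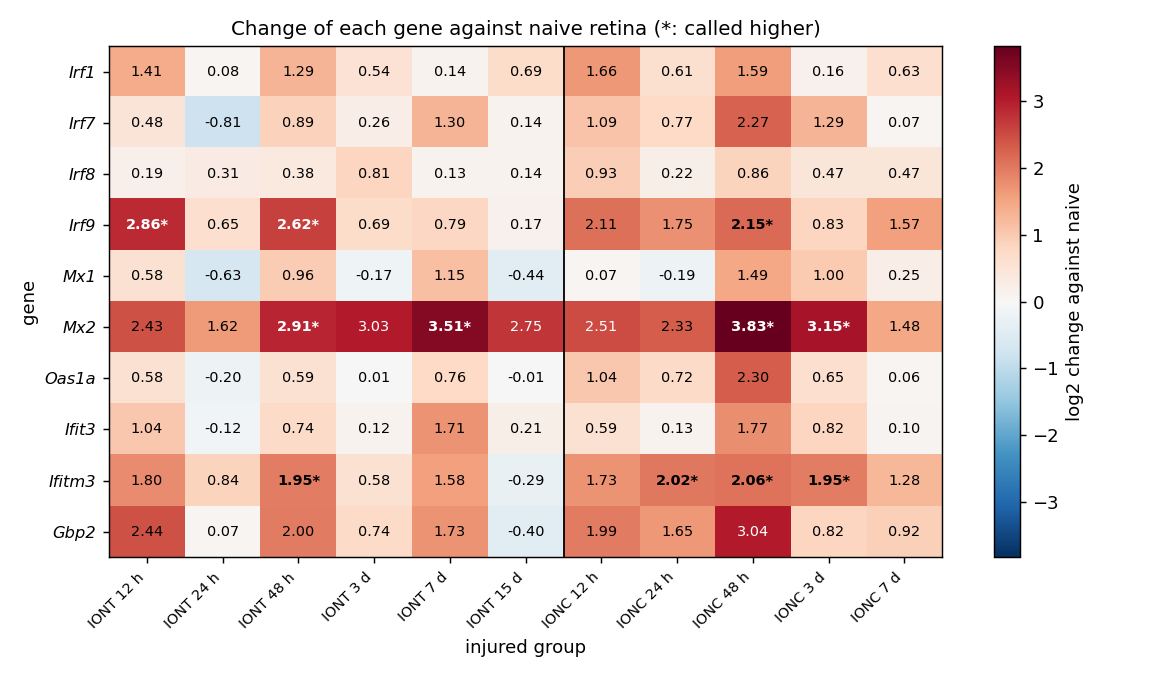
Log2 change of each of the 10 genes (rows) against naïve at each time after IONT and IONC (columns), from red for higher to blue for lower, with the value printed and an asterisk on called changes. The 11 called changes lie in the rows of Irf9, Mx2 and Ifitm3, and the 48 h column of IONC has the highest median, 2.11.

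Irf9 encodes the DNA-binding subunit of ISGF3, the factor through which type I interferons act on their genes. Its naïve levels were 6.22, 6.0, 6.12, 7.30 and 6.75 in replicates 1 to 5. At 12 h after IONT they were 9.33, 9.30 and 9.38, and at 48 h 8.88, 9.08 and 9.33. All 6 arrays lay above every naïve array. The change was 2.86 ± 0.50 (log2, SE) at 12 h, 7.24-fold (adjusted p = 0.000482), and 2.62 ± 0.50 at 48 h, 6.14-fold (adjusted p = 0.000856). After IONC the levels were 9.72, 6.37 and 9.67 at 12 h, 8.13, 8.37 and 8.18 at 24 h, and 9.68, 7.99 and 8.23 at 48 h. Apart from IONC 12 h replicate 2, which lay among the naïve arrays, all of these were above the highest naïve array. The change at 48 h was 2.15 ± 0.50 (adjusted p = 0.00661). That at 12 h, 2.11 ± 0.50, had an adjusted p of 0.00434 but a B of -0.13 and was not called. Against naïve replicates 1 to 3 the IONT 12 h and 48 h calls of Irf9 remained, the IONC 48 h call was lost (2.52, adjusted p = 0.0116) and IONC 12 h was called (2.47, adjusted p = 0.00585).

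By 7 d after IONT Irf9 was at 7.00, 7.70 and 7.10, and 2 of the 3 pools were below naïve replicate 4. At 7 d after IONC it was at 8.59, 7.77 and 7.78, all above naïve. The fall from 12 h to 7 d after IONT was -2.07 (95% interval -3.23 to -0.90), with an adjusted p of 0.0449, and was not called. The second probe set of Irf9 gave changes of 3.13 at 12 h and 2.45 at 48 h after IONT, and of 2.39 at 12 h and 2.15 at 48 h after IONC, all 4 called higher. Its fall from 12 h to 7 d after IONT, -2.28, was called (adjusted p = 0.00631).

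Irf1 encodes an early transcriptional activator induced by interferon gamma and by NF-kappaB signals. Its naïve levels were 6.81, 6.64, 6.57, 6.94 and 6.63. They were 8.38, 8.09 and 7.92 at 12 h and 7.92, 8.10 and 8.02 at 48 h after IONT, and 7.16 and 6.57 at 24 h. The 12 h and 48 h pools lay above every naïve array, while the 24 h pools, which belong to the other array set, did not. The changes, 1.41 ± 0.46 at 12 h and 1.29 ± 0.46 at 48 h, were not called (adjusted p = 0.0656 and 0.0801). After IONC Irf1 was at 9.30, 6.45 and 9.37 at 12 h, at 7.10, 7.47 and 7.40 at 24 h, and at 9.54, 7.60 and 7.77 at 48 h. Replicate 2 at 12 h was below all naïve arrays, whereas all other pools of these 3 groups were above them. The largest change, 1.66 ± 0.46 at IONC 12 h, was not called (adjusted p = 0.0123). By 7 d after IONT (6.83, 7.21 and 6.52) and 3 d after IONC (6.96, 7.13 and 6.54) the levels overlapped those of naïve retinas. At 3 d and 15 d after IONT, at 7.41 and 7.24 and at 7.59 and 7.36, they were above all naïve arrays, and at 7 d after IONC they were 7.91, 7.44 and 6.71. None of these changes was called.

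Irf7 encodes the factor that amplifies type I interferon production. Its naïve levels were 6.12, 5.64, 5.2, 6.38 and 5.2. After IONC they were 7.56, 4.99 and 7.86 at 12 h, 9.59, 5.94 and 8.41 at 48 h, and 7.47, 7.81 and 5.72 at 3 d. In each of these groups 2 pools were above all naïve arrays and 1 was not. The change at IONC 48 h was 2.27 ± 0.69 (adjusted p = 0.0371) and was not called. After IONT only the 7 d group, at 6.50, 7.86 and 6.66, was above every naïve array, by 1.30 ± 0.69 (adjusted p = 0.298).

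Irf8 encodes a factor of the myeloid lineage, microglia included. It was close to the lower end of the scale, at 2.74 to 3.43 in naïve retinas. It reached 4.44 and 4.53 in replicates 1 and 3 of IONC 12 h, 4.65 in replicate 1 of IONC 48 h and 4.39 in replicate 1 of IONT 3 d. All other arrays of injured retinas lay between 2.89 and 3.59. No change of Irf8 was called, the largest being 0.93 ± 0.30 at IONC 12 h (adjusted p = 0.0274).

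**Figure D2:**
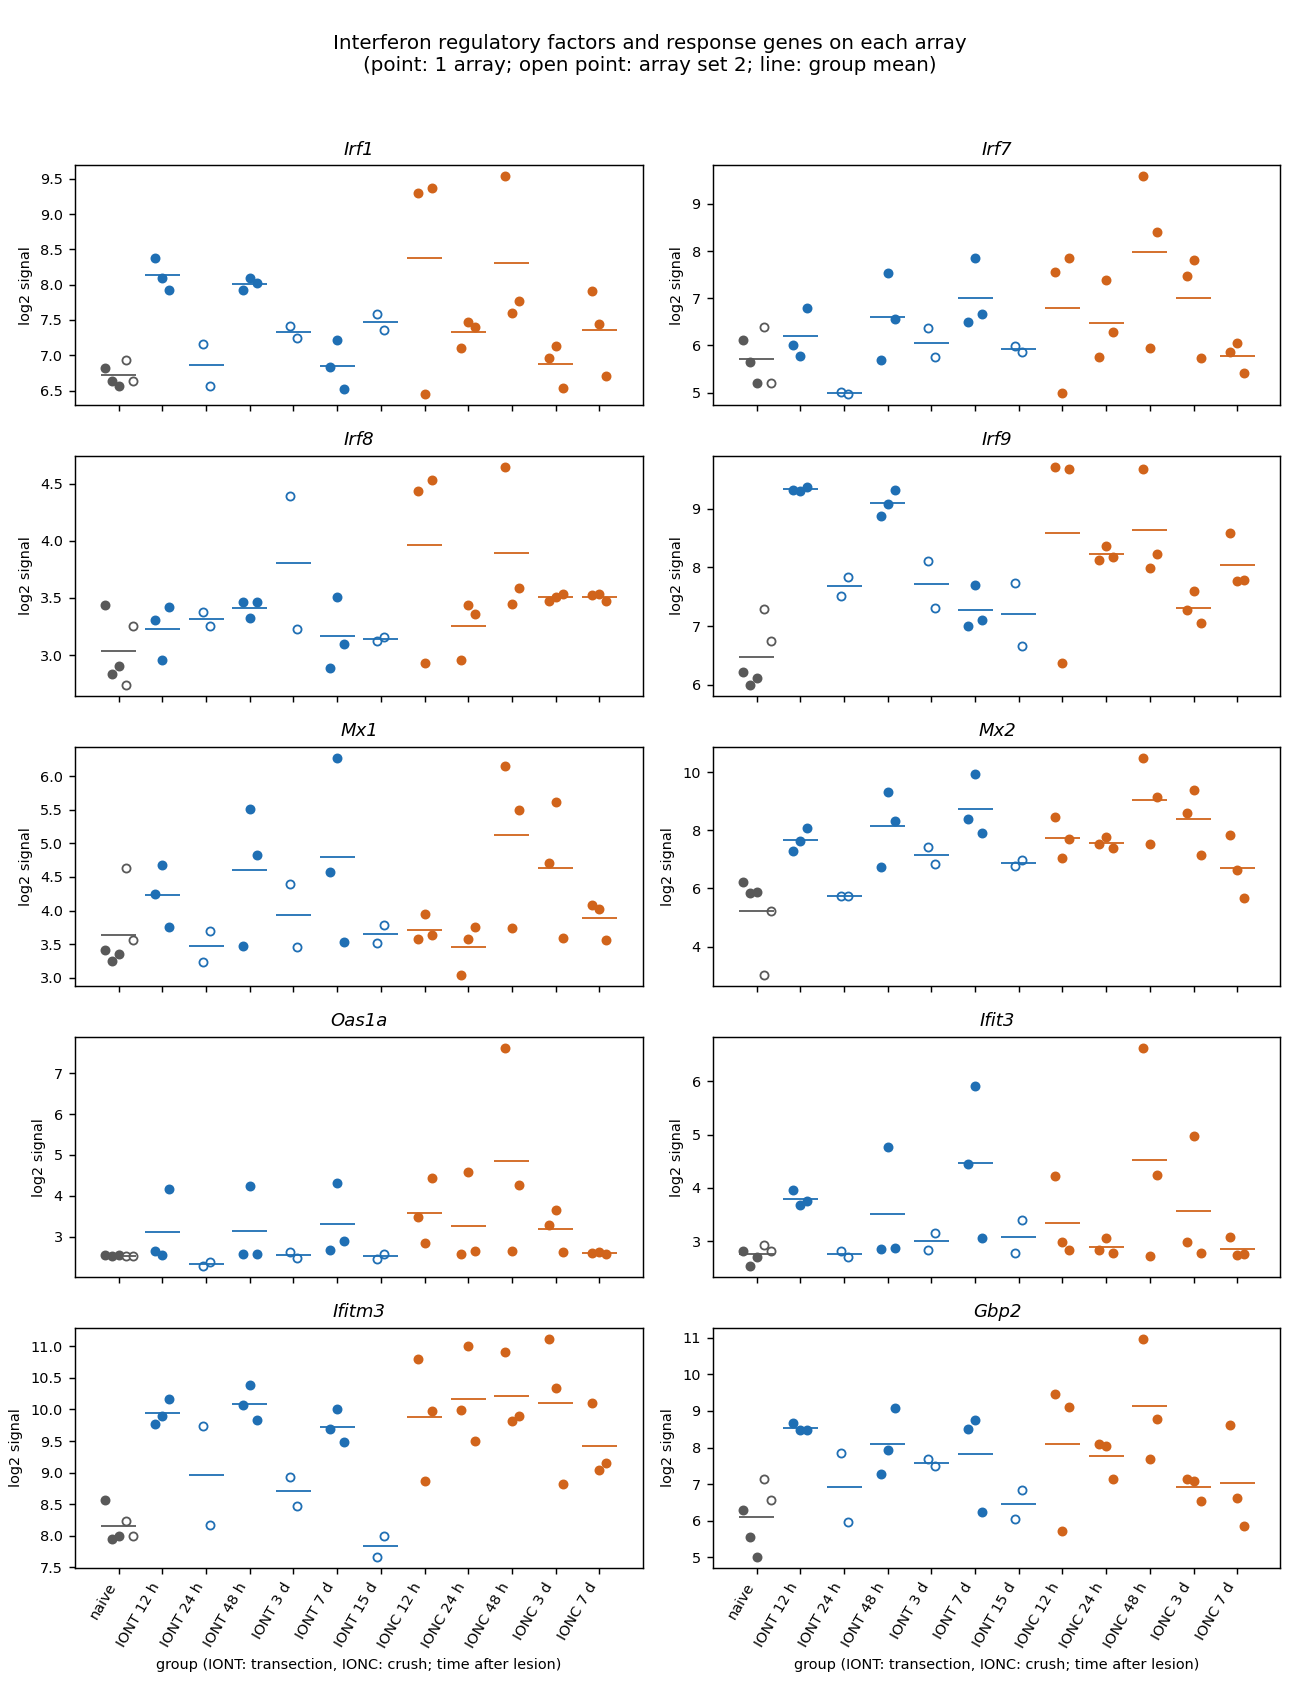
Log2 signal (vertical axis) of each gene on each of the 35 arrays, by group (horizontal axis: naïve in grey, IONT in blue, IONC in orange). Points are arrays, open points the 8 arrays with the larger actin difference, and lines group means. Irf9 and Ifitm3 lie above naïve in most injured groups, whereas Oas1a and Ifit3 leave the naïve level on some pools of a group and not on others.

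Mx2 encodes a dynamin-like GTPase that restricts viruses. Its naïve levels were 6.22, 5.84, 5.89, 3.00 and 5.23, with replicate 4 the lowest by far. After IONT they were 6.75, 9.34 and 8.34 at 48 h and 8.41, 9.93 and 7.90 at 7 d. After IONC they were 10.51, 7.53 and 9.14 at 48 h and 8.61, 9.38 and 7.16 at 3 d. All 12 of these arrays were above every naïve array. The changes were 2.91 ± 0.66 at IONT 48 h (adjusted p = 0.00397), 3.51 ± 0.66 at IONT 7 d (adjusted p = 0.000967), 3.83 ± 0.66 at IONC 48 h (adjusted p = 0.000392) and 3.15 ± 0.66 at IONC 3 d (adjusted p = 0.00341). The IONC 48 h change was 14.2-fold. At 7 d after IONC the levels were 7.83, 6.65 and 5.68 and overlapped the naïve ones, whereas at 15 d after IONT, at 6.77 and 6.96, they were above all naïve arrays (change 2.75 ± 0.90, adjusted p = 0.105).

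The second Mx2 probe set had no called change. Its largest was 1.80 at IONC 48 h (adjusted p = 0.159). At IONT 24 h, 3 d and 15 d it changed by -1.20, -1.30 and -0.90, against 1.62, 3.03 and 2.75 for the first probe set. The probe sets of Mx2 therefore disagreed. The Mx, Oas and Ifitm families hold close paralogs, and whether their probe sets tell the copies apart was not tested. Against naïve replicates 1 to 3 alone, the 3 naïve arrays of the larger array set, the Mx2 changes were smaller, 2.16, 2.76, 3.08 and 2.40 in the order above, and none was called (adjusted p = 0.0188 to 0.168).

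Ifitm3 encodes a membrane protein that blocks the entry of enveloped viruses, and its naïve levels were 8.56, 7.95, 8.00, 8.23 and 8.00. It was at 9.76, 9.90 and 10.17 at 12 h, 10.07, 10.38 and 9.83 at 48 h and 9.69, 10.01 and 9.48 at 7 d after IONT. At 12 h after IONC it was at 10.79, 8.87 and 9.98, and after 24 h at 9.99, 11 and 9.51. The 48 h pools were at 10.92, 9.82 and 9.90, and the 3 d pools at 11.12, 10.34 and 8.82. All 21 of these arrays lay above every naïve array. The change was called at IONT 48 h, where it was 1.95 ± 0.46 (adjusted p = 0.00548), and at IONC 24 h, 48 h and 3 d, where it was 2.02, 2.06 and 1.95 with the same SE (adjusted p = 0.00568, 0.00429 and 0.00869). These are rises of 3.85-fold to 4.18-fold. None of the 4 was called against naïve replicates 1 to 3, with changes of 1.92, 2.00, 2.04 and 1.93 (adjusted p = 0.0258 to 0.0822). At IONT 15 d, 7.67 and 7.99, Ifitm3 was below both of its naïve arrays and not called (change -0.29 ± 0.63).

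Gbp2 encodes a guanylate-binding protein, a GTPase strongly induced by interferon gamma. Its naïve levels were 6.29, 5.54, 5.01, 7.13 and 6.56. It was at 8.66, 8.49 and 8.48 at IONT 12 h, and at 10.98, 7.67 and 8.78 at IONC 48 h, all above naïve. The change at IONC 48 h was 3.04 ± 0.79, 8.23-fold (adjusted p = 0.0146), and that at IONT 12 h was 2.44 ± 0.79 (adjusted p = 0.0625). Neither was called. At IONC 12 h replicates 1 and 3 were at 9.48 and 9.10 and replicate 2 at 5.71.

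Oas1a encodes an oligoadenylate synthetase, which senses double-stranded RNA and activates RNase L. It was near the floor in all naïve retinas, at 2.53 to 2.56. At IONC 48 h it was at 7.61, 2.67 and 4.28, at IONC 24 h at 2.57, 4.58 and 2.65, and at IONT 12 h at 2.65, 2.56 and 4.17. Each of these groups held both a pool near the naïve level and a pool above 4. The change at IONC 48 h, 2.30 ± 0.71, was not called (adjusted p = 0.0411).

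Ifit3, which encodes an adaptor of antiviral signaling, behaved in a similar way. It was at 2.54 to 2.94 in naïve retinas, also near the floor. It was at 2.85, 4.78 and 2.88 at IONT 48 h, 4.44, 5.92 and 3.05 at IONT 7 d, 6.63, 2.73 and 4.24 at IONC 48 h, and 2.98, 4.97 and 2.78 at IONC 3 d. At IONT 12 h all 3 pools were above naïve, at 3.96, 3.67 and 3.76. Its largest change, 1.77 ± 0.65 at IONC 48 h, was not called (adjusted p = 0.101).

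Mx1, the other Mx GTPase measured, was at 3.41, 3.25, 3.35, 4.63 and 3.57 in naïve retinas. It was at 3.48, 5.51 and 4.83 at IONT 48 h, 4.57, 6.28 and 3.53 at IONT 7 d, 6.16, 3.73 and 5.5 at IONC 48 h, and 4.70, 5.62 and 3.59 at IONC 3 d. Each of these groups held pools within the naïve range. In no injured group were all arrays of Mx1 above all naïve arrays, and no change was called, the largest being 1.49 ± 0.55 at IONC 48 h (adjusted p = 0.101).

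The number of genes whose arrays all lay above every naïve array of the comparison was set beside the share of all genes that did so. For IONT 12 h it was 6 of the 10, beside 10% of all genes, for 24 h 2 (26.0%), for 48 h 6 (16%), for 3 d 5 (23.3%), for 7 d 5 (31.9%) and for 15 d 2 (31.2%). For IONC 12 h it was 3 (6.76%), for 24 h 6 (14.2%), for 48 h 7 (20.9%), for 3 d 4 (29.4%) and for 7 d 4 (32.3%). The counts of 2 at IONT 24 h and 15 d and of 4 at IONC 3 d and 7 d were near the share of all genes. That of 5 at IONT 7 d was not far above it. Mx2 met this in 10 of the 11 groups, Ifitm3 in 9, Irf9 and Oas1a in 7 each, Irf1 in 6, Gbp2 in 5, Irf8 in 3, Ifit3 in 2, Irf7 in 1 and Mx1 in 0. The count of Mx2 includes IONT 24 h, 3 d and 15 d, set against naïve replicates 4 and 5 alone, at 3.00 and 5.23. At IONT 24 h, 5.75 and 5.72, Mx2 was below naïve replicates 1 to 3, at 5.84 to 6.22. The count of Oas1a rests on a naïve range of only 2.53 to 2.56, near the floor. Levels of 2.59 to 2.63 at IONC 7 d, also near the floor, were enough to meet it.

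The pools of a group differed more for these genes than for most. Their SD within groups was 0.42 to 1.12 (log2), with a median of 0.85, against a median of 0.28 over all genes, and all 10 were above that median. These SDs include the outlying IONC 12 h replicate 2. It deviated from its group mean by -1.93 in Irf1, -2.22 in Irf9 and -2.38 in Gbp2, but by -0.70 in Mx2 and -0.74 in Oas1a. SDs without that array were not computed. The spread was shared. In IONT 48 h replicate 2, IONT 7 d replicate 2, IONC 48 h replicate 1 and IONC 3 d replicate 2, each of Irf7, Mx1, Mx2, Oas1a and Ifit3 was the highest of its group. The mean deviation of these 5 genes from the group mean was 1.09, 1.2, 1.79 and 0.93 on those arrays. IONC 48 h replicate 2 was the lowest of all arrays, at -1.79. These 5 genes and the 4 arrays were picked after their values were seen.

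Over the 32 arrays other than IONC 12 h, the deviations of these 5 genes correlated with each other at r = 0.60 to 0.85 over 10 pairs (median 0.75). The highest value was that of Irf7 and Oas1a. The other 35 pairs had r = 0.37 to 0.79 (median 0.59), and the highest of them was Irf1 and Gbp2. Genes measured on 1 array share its RNA, labelling and normalization, so these values are a description. On the 4 arrays named above, the mean deviation of 20 microglia and macrophage markers was 0.03, 0.11, 0.02 and 0.02, close to their group means. Of 6 neutrophil markers Csf3r, Cxcr2, Mmp8 and Mmp9 had means near the floor in every group. The summed signal of the 6 was 36.67, 46.01 and 46.44 on the arrays of IONT 48 h, IONT 7 d and IONC 3 d, against 31.95 to 33.54 in naïve retinas. On IONC 48 h replicate 1 it was 625.8, against 69.49 and 39.6 on the other pools of that group. Its part in the high values of that array was not tested.

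**Figure D3:**
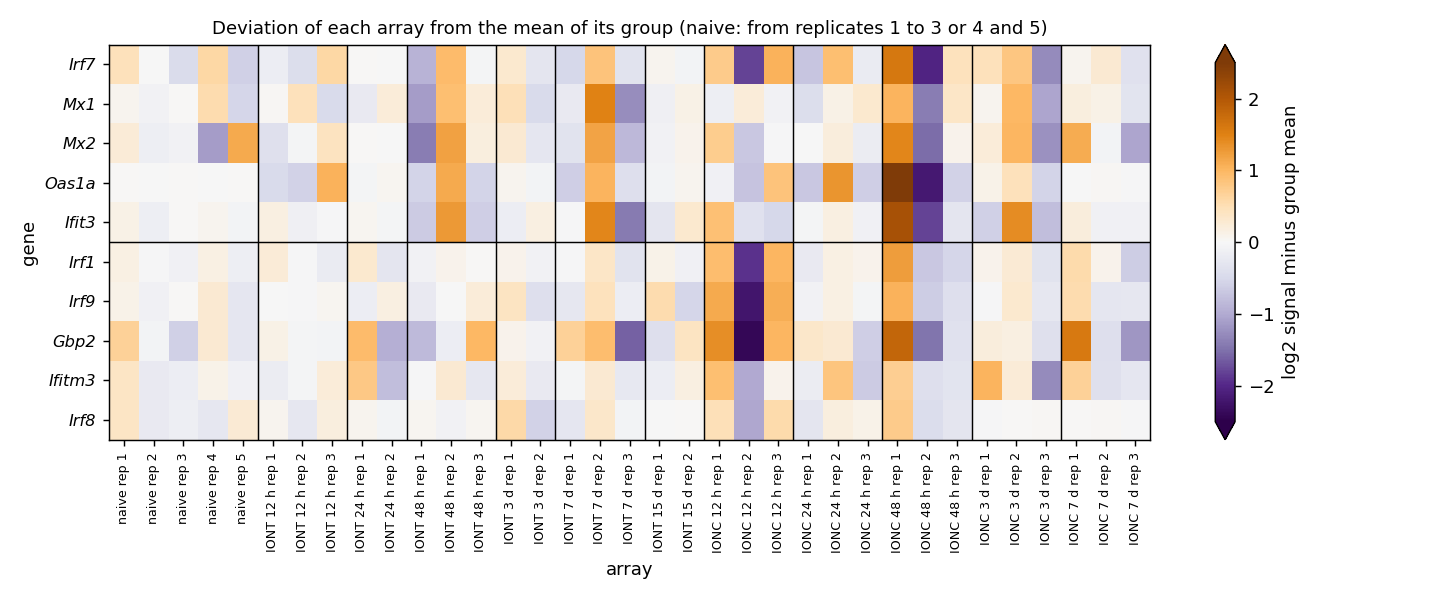
Log2 signal of each gene (rows) on each array (columns) minus the mean of its group, orange for higher and purple for lower. Vertical lines part the groups. The columns of IONT 48 h replicate 2, IONT 7 d replicate 2, IONC 48 h replicate 1 and IONC 3 d replicate 2 are orange for Irf7, Mx1, Mx2, Oas1a and Ifit3 together, and IONC 12 h replicate 2 is purple for Irf1, Irf9 and Gbp2.

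IONC 12 h replicate 2 decided several calls. In Irf1, Irf7, Irf8, Irf9, Oas1a, Mx2, Ifitm3 and Gbp2 replicate 2 was the lowest of its group, while replicates 1 and 3 were both above all naïve arrays. The summed microglia and macrophage signal was 595.7 in replicate 2 and 2330 and 2579 in replicates 1 and 3. Its part in these differences was not tested. Without it 11 further changes were called and all 11 above were kept. At IONC 12 h the calls became 4, where 6.28% of all genes were called higher, with Irf1 at 2.62 (adjusted p = 1.07e-05), Irf8 at 1.45 (adjusted p = 0.000466), Irf9 at 3.22 (adjusted p = 7.32e-07) and Ifitm3 at 2.24 (adjusted p = 0.00203). Irf9 was added at IONC 24 h, to 2 calls (4.51%), and at IONC 7 d, to 1 call (4.11%). Irf1 and Gbp2 were added at IONC 48 h, to 5 calls (5.73%), and Irf1 at IONT 12 h, to 2 calls (4.99%). The falls from 12 h to 7 d of Irf9 after IONT, -2.07 (6.86% of all genes called in either direction), and of Irf1 after IONC, -1.99 (0.802%), were then called.

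**Figure D4:**
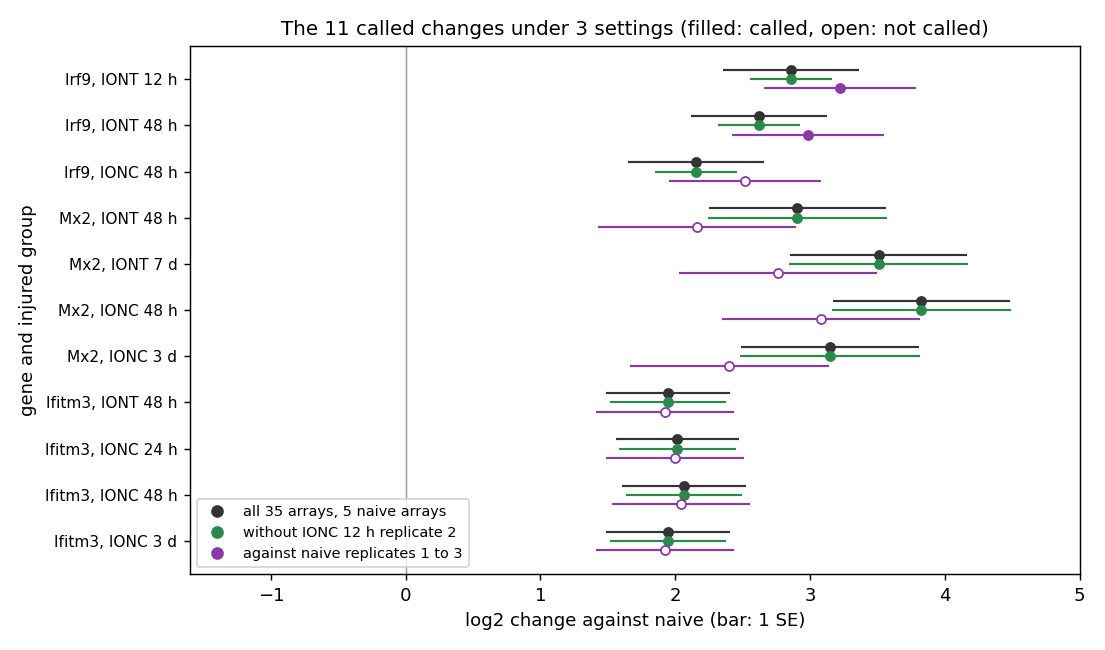
Log2 change against naïve (horizontal axis, bars 1 SE) of the 11 called changes with all arrays, without IONC 12 h replicate 2, and against naïve replicates 1 to 3, with filled points for called. Against naïve replicates 1 to 3 the changes of Irf9 at IONT 12 h and 48 h remained called, and each change of Mx2 was smaller, at IONT 7 d 2.76 in place of 3.51.

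The lesions were compared by the difference of their changes at each shared time point. No difference was called for any of the 10 genes at any of the 5 times. Of all genes, limma called 1.62% in either direction for the 12 h groups, 0.879% for 24 h, 0.148% for 48 h, 0.774% for 3 d and 0.0563% for 7 d. Of 50 differences 4 had an unadjusted p under 0.05. Irf8 was higher after IONC at 12 h by 0.74 (95% interval 0.05 to 1.43), and Oas1a at 48 h by 1.71 (0.08 to 3.35). At 7 d Mx2 was lower after IONC by -2.03 (-3.55 to -0.50) and Ifit3 by -1.61 (-3.12 to -0.10). The intervals were wide. Ifitm3 differed at 48 h by 0.12 (-0.94 to 1.18) and Irf9 at 12 h by -0.75 (-1.91 to 0.42), so that a difference of 1 log2 unit was within the interval of both. Without IONC 12 h replicate 2 the 12 h differences of Irf9, Gbp2 and Ifitm3 changed sign, to 0.36, 0.74 and 0.44. That of Irf8 was then 1.26 (adjusted p = 0.0217) and that of Irf1 1.21 (adjusted p = 0.107). Those of Mx1 (-0.63) and Ifit3 (-0.27) stayed below 0, and none of the 12 h differences was called.

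Late and early times of a lesion were compared in the same way, and none of the 10 genes was called. The share of all genes called in either direction was 1.73% for IONT 7 d against 12 h, 1.89% for IONT 15 d against 24 h and 0.732% for IONC 7 d against 12 h. Of 30 values 2 had an unadjusted p under 0.05, the falls of Irf1 (-1.28, 95% interval -2.35 to -0.20) and of Irf9 from 12 h to 7 d after IONT.

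The interferon mRNAs measured, Ifnb1 and Ifng among them, were near the floor in every group. Ifna1, Ifna4, Ifne, Ifnl1 and Ifnl3 were looked for but had no probe set with 1 gene symbol, so nothing can be said of them. Ifnb1 was at 2.16 ± 0.01 (SD, n = 5) in naïve retinas and at most 2.41 as a group mean, and Ifng at 2.20 ± 0.01 and 2.40. The receptor chains Ifnar1 (7.18), Ifngr1 (7.90) and Ifngr2 (7.79) were well above it in naïve retinas. Of 9 ligand and receptor genes 1 was called higher, Ifnar2 at IONT 12 h by 1.57 ± 0.32 (adjusted p = 0.00216), and 0 lower. The change was 1.17 against naïve replicates 1 to 3 (adjusted p = 0.123). This count and those of the lists below stand beside 7.35% of all genes called higher in at least 1 of the 11 comparisons and 9.09% called lower. A count of 1 of 9 is near these shares.

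Of 9 genes of the JAK-STAT pathway and its inhibitors 1 was called higher and 2 lower. Socs3, which encodes a feedback inhibitor of cytokine receptors, rose from near the floor (2.26 ± 0.03 in naïve retinas) by 3.38 at IONT 12 h, 3.63 at IONT 48 h and 3.24 at IONC 12 h (adjusted p = 0.00295, 0.00109 and 0.00228), each with an SE of 0.72. Only the IONT 48 h change of Socs3 was called against naïve replicates 1 to 3. Pias1, which encodes a SUMO ligase that inhibits cytokine signaling, fell by 1.17 at IONC 12 h (adjusted p = 4.91e-05). The kinase Tyk2 was called lower at IONT 7 d, IONC 3 d and IONC 7 d, but its naïve levels ran from 4.63 to 6.42, and against naïve replicates 1 to 3 no change of it was called.

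Of 10 nucleic acid sensors and adaptors 3 were called higher. Myd88, the adaptor of most Toll-like receptors, rose by 1.79 at IONT 12 h, 1.64 at IONT 48 h, 1.87 at IONC 12 h and 1.24 at IONC 48 h, each with an SE of 0.28 (adjusted p = 4.35e-05 to 0.00484). Ifih1, a cytoplasmic sensor of double-stranded RNA, was called at IONC 12 h by 0.64 ± 0.09 (adjusted p = 2.57e-05), from near the floor. In the other groups of the larger array set it changed by at most 0.10 against naïve replicates 1 to 3. The IONC 12 h calls of Ifih1 and of the other list genes were not examined without the outlying replicate 2. Mavs, the mitochondrial adaptor of the Ifih1 pathway, was called at IONT 15 d, by 0.60 ± 0.13 (adjusted p = 0.00919). Of 3 other IRF genes 1, Irf3, was called lower, at IONT 7 d by 0.89 below naïve, IONC 3 d and IONC 7 d, and none of these was called against naïve replicates 1 to 3.

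Of 38 other type I response genes 11 were called higher in at least 1 comparison and 0 lower. Ifi27l2b, of the interferon-inducible Ifi27 family, rose by 2.96 to 3.72 in 5 groups from naïve levels of 3.40 to 7.18, among them IONT 7 d with 3.72 ± 0.59 (adjusted p = 0.000158). Trim25, the ubiquitin ligase that activates RIG-I, was called in 8 groups, with 3.09 ± 0.34 at IONT 12 h (adjusted p = 1.52e-06). Stat3, better known as a target and mediator of other cytokines, was called in 7 groups, with 2.78 ± 0.34 at IONT 48 h (adjusted p = 4.02e-06). Lgals3bp was called at IONC 48 h, by 2.95 ± 0.67 (adjusted p = 0.00514). Against naïve replicates 1 to 3 the genes of this list called higher were 5, Ifi27l2b, Trim25, Herc6, Cmpk2 and Stat3. All 5 groups of Ifi27l2b remained called, but 3 of the 8 groups of Trim25 and 3 of the 7 groups of Stat3.

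Of 19 other interferon gamma response genes 5 were called higher and 1 lower. Those higher were Icam1, an adhesion molecule (IONT 12 h, 3.16 ± 0.72, adjusted p = 0.00564), the immunoproteasome subunit Psmb9 (IONC 48 h, 2.92 ± 0.65, adjusted p = 0.00475), the peptide-loading chaperone Tapbp (IONC 12 h, 1.99 ± 0.29, adjusted p = 3.48e-05), B2m and Ifi30. Ciita, the master activator of MHC class II genes, fell by 3.39 at IONT 48 h and by 3.48 at IONC 12 h, each with an SE of 0.34 (adjusted p = 2.45e-07 and 1.43e-07), and was called lower in 5 groups. Against naïve replicates 1 to 3 Tapbp was called at IONC 12 h, Ciita in 4 of its 5 groups and the other 4 genes in none. At IONC 48 h the median change was 1.30 in the type I list and 1.44 in the interferon gamma list, against 2.11 for the 10 genes and 0.03 for all genes.

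**Figure D5:**
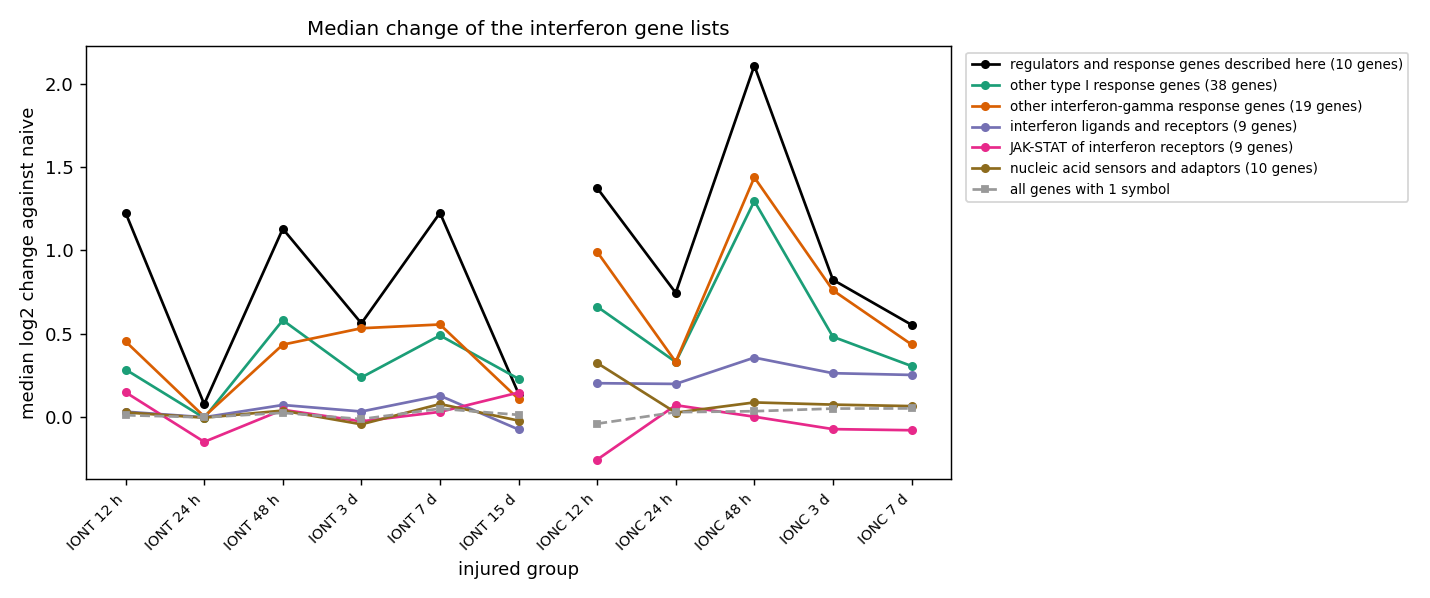
Median log2 change against naïve (vertical axis) of each interferon gene list and of all genes, by injured group (horizontal axis). The 10 genes and the lists of type I and interferon gamma response genes all have their highest median at IONC 48 h, 2.11, 1.30 and 1.44, while the medians of the sensors, the JAK-STAT genes and the ligands and receptors are at most 0.36.

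The genes whose group means most resembled the mean profile of the 10 genes over the 12 groups were Asl, Dtx3l, Usf2, Psmb9, Psme2, Isg15, Usp18 and Ccm2, with r = 0.92 to 0.94. All 8 had their highest group mean at IONC 48 h, a likeness for which they were chosen. Among them the ubiquitin-like modifier Isg15 went from 4.35 ± 0.62 (SD, n = 5) in naïve retinas to 7.32 and its deconjugating enzyme Usp18 from 4.45 ± 0.95 to 6.73. Of the 8, Asl (0.72 ± 0.14), Usf2 (0.77 ± 0.18) and Psmb9 were called at IONC 48 h, and none of these calls held against naïve replicates 1 to 3 (adjusted p = 0.0521 to 0.0570). Within the 10 genes, Gbp2 and Oas1a were closest to their common profile (r = 0.92 and 0.90) and Irf8 the farthest (r = 0.60).

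Of 20 microglia and macrophage markers 9 were called higher in at least 1 comparison. Their summed signal was 502.2 to 556.4 in naïve retinas, 1197 to 1433 at IONT 48 h, 1673 to 2336 at IONC 48 h and 1436 to 2801 at IONT 3 d, while Itgam, Cx3cr1, Cd68 and Tmem119 were near the floor in every group. C1qb, a complement subunit of microglia, rose by 3.11 ± 0.32 at IONC 48 h (adjusted p = 8.2e-07). Of 12 T and NK cell, 3 B cell and 6 neutrophil markers none was called. The summed neutrophil signal was 45.1 to 936.1 at IONT 12 h and 305.3 to 1084 at IONT 24 h, against 31.95 to 33.54 in naïve retinas. Of the 6 markers, Csf3r, Cxcr2, Mmp8 and Mmp9 had means near the floor in every group, which left S100a8 and S100a9. Irf9 was at 9.33, 9.30 and 9.38 on the IONT 12 h arrays, whose neutrophil signals were 45.1, 396.3 and 936.1. The part of microglia, macrophages and neutrophils in the changes of the 10 genes, Irf9 included, was not tested.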

How the data were processed

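RNA pools from 4 rat retinas each were hybridized to 35 Affymetrix RAE230.2 arrays. The deposited values are log2 signals per probe set, which the authors made with GCRMA (background correction, quantile normalization and summary of probes, which moves dim signals to a common floor). The sources used here do not give its version or say if the arrays were treated as 1 set. Values were used as deposited. Of 31099 probe sets, 57 controls were left out and 31042 tested, of which 20826 carried 1 gene symbol (14217 genes), 436 several and 9780 none. A gene was its probe set with the highest mean.

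A linear model with 1 coefficient per injured group and 1 each for naïve replicates 1 to 3 and 4 and 5 was fitted with limma 3.58.1 under R 4.3.3. The package statmod 1.5.0 served for blocks. Variances were moderated by empirical Bayes over 22 residual degrees of freedom. Adjusted p-values are Benjamini-Hochberg values over all tested probe sets in a comparison, and the call thresholds are those of the study's methods. Pools are the replicates, so the p-values rest on how pools varied, and the number of arrays limits their precision. A group mean under a log2 value of 3 was called near the floor. Data with the spread of these arrays were simulated (31042 probe sets), with changes of 1 and 2 (log2) in 100 probe sets each. At IONC 48 h 50 and 94 of these were called, with 5 false calls, and at IONT 3 d 22 and 73, with 1. The genes followed here had an SD within groups of 0.42 to 1.12 (median 0.85), against a median of 0.28 over all genes. The simulated rates may therefore be too high for them, and a simulation with their own spread was not run.

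Every one of the 10 genes was named, together with up to 4 called genes of each other interferon list by mean change, the 8 genes most alike and up to 5 markers of other cell types; B2m, Ifi30, Herc6, Cmpk2, the receptors and interferons were named after their values were seen. The genes and lists were chosen with earlier results of these data known. The alternatives were other thresholds, a filter on dim probe sets, array weights, a variance trend with robust moderation, a random block for the replicate number, median centring, cyclic loess, other naïve references, the array set as a term, separate fits per lesion, other probe set choices and each array left out in turn. The combination of naïve replicates 1 to 3 with IONC 12 h replicate 2 left out was chosen after seeing the data. The replicate number did not pair the pools: of 84 same-number pairs of arrays in different groups 24 had deviations that correlated above 0.1 (range -0.39 to 0.34).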

Additional observations from a re-analysis of the deposited data

Results flagged for a closer look

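Mx1 in naïve replicate 4 lay far from the other naïve arrays. It was at 4.63, against 3.25 to 3.57 on the others, and the gap to its nearest neighbour was 0.770 of the group's range, above Dixon's critical value for 5 samples. Chance flags about 1 in 20 such groups, and 10 genes were examined. Naïve replicate 4 belongs to the array set with the larger actin difference, and it was also the lowest naïve array of Mx2, at 3.00.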

How the results depend on the processing

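The direction of no called change was reversed under any of the 51 settings, of which 35 left out 1 array each. Of 9640 single values 9411 stayed on their side of the threshold in the same direction, 131 lost a call and 98 gained one. Most of the 9640 values were not called in the first place. The 131 losses all fell on the 11 called changes, of which a single setting ended between 0 and 9. With all arrays the 10 genes had 5 calls after IONT, 6 after IONC, 0 for the difference of the lesions and 0 between late and early times. Leaving out 1 array gave 3 to 6 calls after IONT, 2 to 14 after IONC, 0 for the difference of the lesions and 0 to 2 between late and early times. The highest values came without IONC 12 h replicate 2. Without naïve replicate 4, Mx2 at IONT 48 h and IONC 3 d and all 4 calls of Ifitm3 were lost. The 4 calls of Ifitm3 were also lost without naïve replicate 2, 3 or 5. Ifitm3 at IONT 48 h and IONC 3 d and Irf9 at IONC 48 h lost their calls without some arrays of other groups too, such as IONT 12 h replicate 1. At an adjusted p under 0.05 without B the calls were 8 after IONT, 18 after IONC and 1 between late and early times. With array weights, whose estimate stopped before convergence, they were 12 and 19, with 3 for the difference of the lesions and 8 between late and early times. Cyclic loess gave 13 after IONC and 1 between late and early times. A separate fit for each lesion gave 9 after IONT, 1 after IONC and 2 between late and early times, and averaging all probe sets per gene gave 3 after IONT. With naïve as 1 group of 5 there were 2 after IONC. With naïve replicates 1 to 3 as the reference, which here equals the array set as a term, there were 2 after IONT and 1 after IONC. With IONC 12 h replicate 2 also left out there were 2 after IONT, 10 after IONC and 2 between late and early times. The cause of these differences was not tested.

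With the replicate number as a random block there were 4 calls after IONT, 5 after IONC, and 0 for the difference of the lesions and between late and early times. Ifitm3 at IONT 48 h and IONC 3 d lost their calls. The replicate number did not pair the pools, so this is no paired result. Centring each array on its median moved the median of all genes by -0.13 at IONT 24 h, -0.15 at IONT 3 d, -0.21 at IONT 15 d and, for the difference of the lesions, by 0.16 at 24 h and 3 d. With 2 arrays in a group a change of 1 log2 unit was called in 22 of 100 simulated probe sets, which limits what IONT 24 h, 3 d and 15 d can show.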
